A study of Mus musculus with 10 samples.

Results

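The genes that set the calcium level and the membrane potential of arterial smooth muscle were examined in the abdominal aorta of KCASP1Tg and WT mice. The list held 10 genes: Cacna1c, Itpr1, Atp2a2, Pln, Atp2b4, Kcnma1, Kcnmb1, Kcnj8, Abcc9 and Kcna5. Every probe set (a group of short probes for 1 transcript) annotated to exactly 1 of these symbols was taken. Itpr1 was not analysed here, and the other 9 genes had 24 of the 45037 probe sets of the array. Of these, 22 reached a signal of 100 on at least 4 arrays and were tested among 26242 such probe sets.

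KCASP1Tg mice carry the human caspase-1 gene under the keratin 14 promoter, which is active in keratinocytes, so the transgene acts in the skin and the mice have spontaneous dermatitis. WT mice were C57BL/6 littermates without the transgene. All mice were female and 4 months (16 weeks) old by the labels and methods, and no treatment is named for either group. Abdominal aorta, which the labels call dechorionated, was taken from 4 WT and 6 KCASP1Tg mice, and the RNA of each mouse was measured on 1 Affymetrix GeneChip mouse genome array.

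Smooth muscle contracts when calcium rises in its cytoplasm. Calcium enters through the voltage-gated L-type channel and is released from the sarcoplasmic reticulum through the inositol trisphosphate receptor, and pumps return it to the store or out of the cell. Potassium leaving through calcium-activated, ATP-sensitive and voltage-gated potassium channels makes the membrane potential more negative, which closes the L-type channel and relaxes the vessel.

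The sequences upstream of Kcna5 and Pln are shown. Among the listed genes, Kcna5 had the smallest p in the genotype comparison (adjusted p 0.263 by limma), and Pln had the widest range across mice. The sequences come from RefSeq on the mouse build GRCm38.p6 and give the 250 bases before the start site, 5′ to 3′. Kcna5 is on the minus strand at chr6:126532551-126535555 and its upstream window is chr6:126535556-126535805. Pln is on the plus strand at chr10:53337686-53345999 and its upstream window is chr10:53337436-53337685. Capitals mark the motif CATTCC in Kcna5, whose first base is 128 bases before the start site, and TATAAA in Pln, 219 bases before it.
Kcna5: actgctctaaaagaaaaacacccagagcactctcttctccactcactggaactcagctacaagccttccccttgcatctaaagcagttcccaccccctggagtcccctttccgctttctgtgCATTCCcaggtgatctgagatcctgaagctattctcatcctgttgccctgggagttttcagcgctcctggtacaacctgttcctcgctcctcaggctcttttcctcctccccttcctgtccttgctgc
Pln: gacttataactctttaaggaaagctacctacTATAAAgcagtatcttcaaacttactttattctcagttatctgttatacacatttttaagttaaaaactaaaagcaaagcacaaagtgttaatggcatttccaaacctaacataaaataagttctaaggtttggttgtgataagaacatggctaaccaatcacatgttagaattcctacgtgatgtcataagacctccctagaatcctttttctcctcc
Searched on both strands, CATTCC was in 12.64% and TATAAA in 12.37% of 32851 promoter windows of this length. The CArG box, the motif bound by serum response factor, was in 1.47% of all windows and in 0 of the 10 windows found for 8 of the listed genes. These matches describe the letters only.

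The samples held contractile smooth muscle. Acta2 had a signal of 18138 to 42487 and Myh11 of 2453 to 14068 over the 10 mice. They also held fat, with Adipoq at 29503 to 45368, and unequal amounts of other tissues. The mean log2 signal of 10 heart muscle genes was 11.51 in WT 4, 10.64 in KCASP1Tg 1 and 9.79 in KCASP1Tg 2, against 5.33 to 6.92 in the other mice. Not all of the 10 genes followed this mean. Myl2 had signals of 38.1, 36.2 and 6.3 in those mice and was highest in WT 1 (122.2). Myl3 had 229.7, 110.5 and 123.4 in them, and 226.8 in WT 1. Skeletal muscle genes were high in WT 1 and KCASP1Tg 4 (11.12 and 10.85, against 4.58 to 5.88). Sympathetic neuron and chromaffin cell genes were low in WT 4 and KCASP1Tg 3 (9.76 and 9.41, against 11.80 to 12.76), and liver genes were high in WT 1 and WT 3 (14.07 and 12.56). KCASP1Tg 4 stood apart: it had the lowest mean of the 15 contractile genes (10.65, against 11.71 to 12.22) and the highest mean of the 6 leukocyte genes (12.61, against 9.22 to 10.37 in the other KCASP1Tg and 6.97 to 8.13 in WT mice). Of the 22 tested probe sets, 14 (of 6 genes) were lowest in KCASP1Tg 4 and 10 (of 3 genes) were highest in WT 4. The shares over all tested probe sets were not computed, so these counts are not a trait of the listed genes.

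By limma, 0 of the 22 probe sets differed between genotypes at an adjusted p below 0.05, a level that 0.0686% of all tested probe sets passed, all of them higher in KCASP1Tg mice. At an unadjusted p below 0.05, 2 of the 22 passed, 1 of Kcna5 and 1 of Abcc9, both higher in KCASP1Tg mice, against 7.94% of all probe sets in either direction and 4.52% with KCASP1Tg higher. By the exact Mann-Whitney test, 0 of the 22 passed after adjustment. The groups did not overlap in 1 of the 22, Kcna5, against 2.93% of all probe sets in either direction and 1.98% with KCASP1Tg higher. The log2 fold change was positive in 6 and negative in 16, with a median of −0.11, against −0.002 over all tested probe sets. On the same scale the 15 contractile genes had a median of −0.29, with all 15 negative and 0 called. Kcna5, Kcnj8 and all 3 probe sets of Abcc9 were among the positive values, and those of Cacna1c, Pln, Atp2b4, Kcnma1 and Kcnmb1 were all negative. These tallies rested on single mice. Without KCASP1Tg 4 the 22 split into 10 positive and 12 negative with a median of −0.05, the fourth Kcnma1 probe set turned to 0.05, and the contractile genes split into 5 positive and 10 negative with a median of −0.04. Without WT 4 the 22 split into 13 positive and 9 negative with a median of 0.10, and without KCASP1Tg 3 the median was −0.05. Leaving out WT 1, WT 2, WT 3, KCASP1Tg 1, KCASP1Tg 2 or KCASP1Tg 6 gave medians of −0.20 to −0.30.

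**Figure D1:**
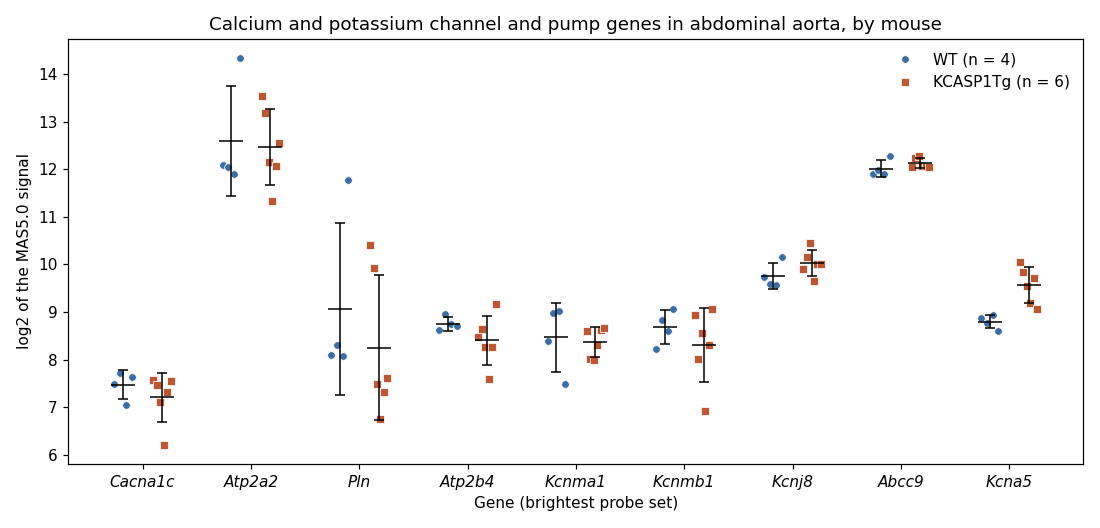
Log2 signal of the brightest probe set of each of the 9 measured genes (vertical axis) in 4 WT (circles) and 6 KCASP1Tg (squares) mice, with the mean (long bar) and SD (whiskers). The groups are apart for Kcna5, where the KCASP1Tg mean of the log2 signal is 9.57 and the WT mean 8.80, and overlap for the others, and Pln and Atp2a2 have the widest spread within each group.

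**Figure D2:**
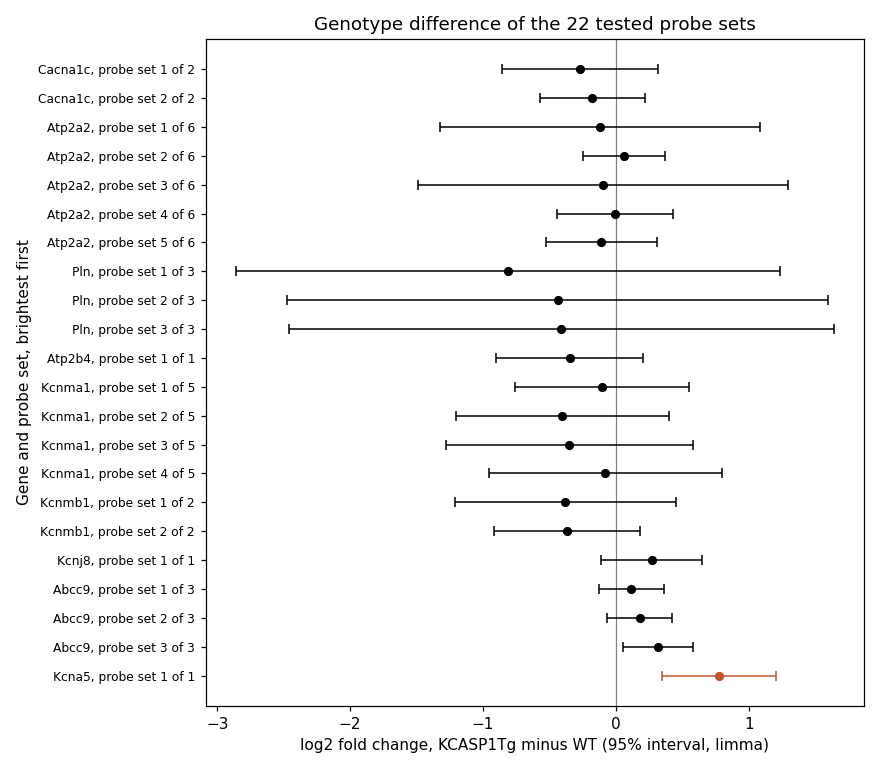
Log2 fold change, KCASP1Tg minus WT (horizontal axis), of the 22 tested probe sets with its 95% interval from limma, without adjustment for multiple testing. The interval lies above 0 for Kcna5 (0.35 to 1.20) and for the third probe set of Abcc9 (0.05 to 0.58), and crosses 0 for the other 20.

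Kcna5 encodes the voltage-gated potassium channel Kv1.5, which carries part of the delayed rectifier current of arterial smooth muscle and is also made in the heart. Its probe set had signals of 472, 437, 489 and 391 in WT mice 1 to 4. In KCASP1Tg mice 1 to 6 it had 1062, 920, 751, 585, 845 and 539. The lowest KCASP1Tg mouse was above the highest WT mouse. The mean was 447.5 ± 43.1 (SD, n = 4) in WT and 783.7 ± 200 (SD, n = 6) in KCASP1Tg mice, a ratio of 1.71 on the geometric scale. This was a log2 fold change of 0.77 (SE 0.19, 95% interval 0.35 to 1.20), with an adjusted p of 0.263 by limma. The exact two-sided Mann-Whitney p was 0.00952, the smallest that 4 against 6 mice can give, and 0.325 after adjustment over all probe sets. With array weights, which give less weight to arrays far from their group, Kcna5 was called with a log2 fold change of 0.88 and an adjusted p of 0.0281, where 1.02% of all probe sets were called, 0.777% with KCASP1Tg higher. Its adjusted p ran from 0.0281 to 0.739 over 25 alternatives, and the log2 fold change was positive in all 25.

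WT 4, with the highest heart list mean, had the lowest Kcna5 signal of all mice. Among KCASP1Tg mice, the heart list was high in KCASP1Tg 1 and 2, which had the highest Kcna5 signals. Without WT 4, KCASP1Tg 1 and KCASP1Tg 2, the log2 fold change was 0.52 (SE 0.19) and the adjusted p 0.739 by limma, with the groups still apart, as they were in 8.7% of probe sets in those 7 arrays. The mean of the leukocyte list was higher in all 6 KCASP1Tg than in all 4 WT mice. Within it, S100a8 and S100a9 had log2 fold changes of 5.22 and 5.34, and the other genes 0.61 to 2.06. Cd3e and Cd79a overlapped between the groups, so the mean does not show more leukocytes of every kind in each mouse. The part of this list in the Kcna5 result was not tested. KCASP1Tg 4, with the highest leukocyte list mean and the lowest contractile list mean (10.65), had the second lowest Kcna5 signal of the KCASP1Tg mice. The part of either list in that value was not tested.

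Kcnj8 and Abcc9 encode the pore (Kir6.1) and the regulatory subunit (SUR2) of the ATP-sensitive potassium channel of vascular smooth muscle and pericytes. They are neighbours on chromosome 6, with start sites 130.7 kb apart on the minus strand. Kcnj8 had signals of 853, 768, 758 and 1137 in WT mice. In KCASP1Tg mice it ran from 806 through a median of 1028 to 1409. Most KCASP1Tg mice lay above WT 1 to 3, but WT 4 lay above 5 of the KCASP1Tg mice. Its log2 fold change was 0.27 (SE 0.17, 95% interval −0.11 to 0.65, adjusted p 0.769 by limma).

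The 3 probe sets of Abcc9 varied little. The brightest had signals of 3794, 4052, 3804 and 4937 in WT mice and of 4222 to 4961 with a median of 4292 in KCASP1Tg mice. Its highest value was 1.31 times its lowest, the narrowest range of the tested probe sets of the list. The log2 fold change was 0.12 (SE 0.11) for this probe set and 0.18 (SE 0.11) for the second. The third had 744, 942, 931 and 881 in WT mice and 935 to 1310 with a median of 1071 in KCASP1Tg mice. There the groups overlapped only in KCASP1Tg 4 and WT 2, and the log2 fold change was 0.31 (SE 0.12). Its unadjusted p was 0.0243 and its adjusted p 0.531 by limma, and its exact Mann-Whitney p was 0.0191. Without KCASP1Tg 4, the groups did not overlap, as in 3.72% of all probe sets in those 9 arrays, and the adjusted p was 0.381. Across the 10 mice the brightest probe sets of Kcnj8 and Abcc9 correlated at r = 0.87, a description over mice of both genotypes that share 1 scaling.

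Kcnma1 encodes the pore of the large-conductance calcium-activated potassium channel, and Kcnmb1 its smooth muscle beta subunit, which raises its sensitivity to calcium. The brighter Kcnmb1 probe set had signals of 299, 457, 388 and 534 in WT mice. In KCASP1Tg mice it ran from 122 through a median of 347 to 533. The lowest value was that of KCASP1Tg 4, and the other 5 KCASP1Tg mice lay at 258 or above. The log2 fold change was −0.38 (SE 0.38, adjusted p 0.895 by limma) with that mouse and −0.11 (SE 0.25, adjusted p 0.966) without it. The second probe set gave −0.37 (SE 0.25) and correlated with the first at r = 0.92.

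Kcnma1 had 5 probe sets, of which 1 stayed below a signal of 100 in every mouse and was not tested. The other 4 had log2 fold changes of −0.10, −0.40, −0.35 and −0.08, from the brightest down, with adjusted p of 0.870 to 0.994 by limma. The probe sets did not vary alike: the brightest correlated with the second at r = 0.10 and with the fourth at r = 0.79. The brightest had 336, 509, 519 and 179 in WT mice and 255 to 404 with a median of 354 in KCASP1Tg mice. It was lowest in WT 4 and then in KCASP1Tg 3 and KCASP1Tg 2. WT 4 and KCASP1Tg 3 were also the mice with few sympathetic neuron and chromaffin cell transcripts, but KCASP1Tg 2 was not (list mean 11.80). Of the Schwann cell genes, Sox10 and Mbp were lowest in WT 4, KCASP1Tg 3 and KCASP1Tg 2, and Pmp2 stayed below 100 in every mouse. The part of these tissues in the Kcnma1 signal was not tested. The second probe set had 175, 231, 254 and 270 in WT mice and 63 to 271 with a median of 206 in KCASP1Tg mice, and its lowest value was again that of KCASP1Tg 4. Without that mouse its log2 fold change was −0.11 (SE 0.18).

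Cacna1c encodes the pore of the L-type calcium channel Cav1.2, the main entry route for calcium in arterial smooth muscle. Its brighter probe set had signals of 180, 211, 133 and 200 in WT mice. In KCASP1Tg mice it ran from 74 through a median of 169 to 190. The groups overlapped, and the value of 74 was that of KCASP1Tg 4. Its log2 fold change was −0.27 (SE 0.26, 95% interval −0.86 to 0.32, adjusted p 0.893 by limma) with that mouse and −0.07 (SE 0.16) without it. The second probe set gave −0.18 (SE 0.18).

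Pln encodes phospholamban, a small membrane protein that inhibits the calcium pump of the sarcoplasmic reticulum, and it is abundant in heart muscle. Its brightest probe set had signals of 273, 317, 270 and 3503 in WT mice 1 to 4. In KCASP1Tg mice 1 to 6 it had 1358, 967, 179, 108, 161 and 197. WT 4, KCASP1Tg 1 and KCASP1Tg 2, with the 3 highest values, were the mice with a high mean of the heart muscle genes, in the same order. The highest signal was 32.3 times the lowest, the widest range of the tested probe sets of the list. Over all 10 mice the log2 fold change was −0.81 (SE 0.93, 95% interval −2.86 to 1.24, adjusted p 0.916 by limma), and it was 0.09 without WT 4. The other 2 probe sets correlated with the first at r = 0.99 and gave −0.44 and −0.41.

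Among the 7 mice without a high mean of the heart muscle genes, no Pln probe set passed the test after adjustment. The brightest was at 270 to 317 in the 3 WT mice and at 108 to 197 in the 4 KCASP1Tg mice, and the groups did not overlap, as in 8.7% of all probe sets in those arrays. Its log2 fold change there was −0.86 (SE 0.22), with an unadjusted p of 0.00480 and an adjusted p of 0.611 by limma. The third probe set also did not overlap and gave −0.45 (SE 0.18, adjusted p 0.765), and the second overlapped and gave −0.55 (SE 0.27, adjusted p 0.789). In these 7 arrays, 6.41% of all probe sets had an unadjusted p below 0.05 and 0.00792% an adjusted p below 0.05. The heart list mean was 5.33 to 6.27 in these WT mice and 5.36 to 6.92 in these KCASP1Tg mice. Actc1 of that list also did not overlap, at 1821 to 3090 in WT and 303 to 1167 in KCASP1Tg mice. KCASP1Tg 4, with the lowest Pln signal, also had the lowest mean of the contractile genes. The part of these tissues in the Pln values was not tested.

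**Figure D3:**
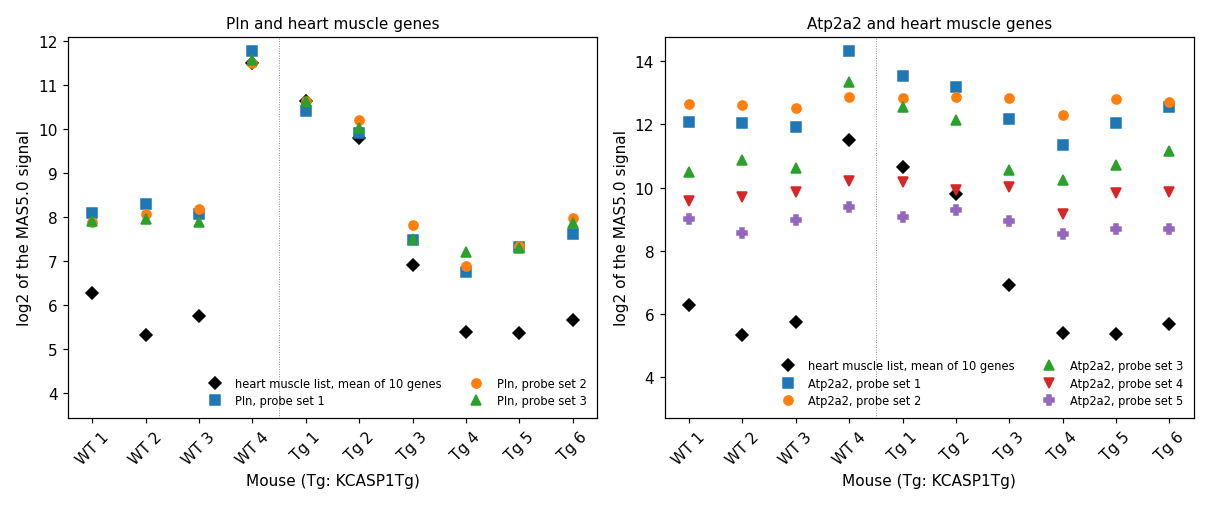
Log2 signal (vertical axis) of the 3 probe sets of Pln (left) and the 5 tested probe sets of Atp2a2 (right) in each mouse (horizontal axis, WT left and KCASP1Tg right of the dotted line), with the mean log2 signal of 10 heart muscle genes (diamonds). Pln and Atp2a2 probe sets 1 and 3 are highest in WT 4, KCASP1Tg 1 and KCASP1Tg 2, as is the heart list. Atp2a2 probe sets 2, 4 and 5 vary much less, and of these probe set 5 is also highest in those mice.

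Atp2a2 encodes SERCA2, the pump that returns calcium to the sarcoplasmic reticulum, made as a short form in heart and a longer one in smooth muscle and most other cells. Its 6 probe sets did not vary alike, and the annotation used here does not tie them to isoforms. The brightest had signals of 4328, 4229, 3848 and 20621 in WT mice 1 to 4. In KCASP1Tg mice 1 to 6 it had 11921, 9337, 4573, 2586, 4267 and 5994. It was highest in the same 3 mice as Pln, and probe set 3 followed it (r = 0.98). Probe sets 2, 4 and 5 were also highest in WT 4. Probe set 5 was highest in the same 3 mice, at 535.8 to 662.5 against 371.1 to 514.0 in the others. Probe set 2 was steady at 5867 to 7554 in WT and 4999 to 7451 in KCASP1Tg mice, with a log2 fold change of 0.06 (SE 0.14, 95% interval −0.25 to 0.37). The brightest gave −0.12 (SE 0.54), and 0.46 without WT 4. Probe sets 4 and 5 gave −0.01 (SE 0.20) and −0.11 (SE 0.19), and the sixth stayed below a signal of 100 in every mouse. Adjusted p was 0.958 to 0.999 for the 5 tested probe sets by limma. Without WT 4, KCASP1Tg 1 and KCASP1Tg 2, the brightest gave 0.01 (SE 0.27).

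Atp2b4 encodes PMCA4, a pump that moves calcium out of the cell through the plasma membrane. Its probe set had signals of 392, 498, 432 and 415 in WT mice. In KCASP1Tg mice it ran from 194 through a median of 334 to 578. Of the KCASP1Tg mice, 4 lay below all WT mice and KCASP1Tg 6 lay above them all. Between genotypes the log2 fold change was −0.35 (SE 0.25, 95% interval −0.90 to 0.20, adjusted p 0.810 by limma), and −0.19 (SE 0.19) without KCASP1Tg 4, which had the lowest signal.

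The signal of each gene was then set against the mean log2 signal of the 15 contractile genes across the 10 mice. In bulk tissue, fewer smooth muscle cells and less RNA per cell cannot be told apart. The brighter Kcnmb1 probe set followed this list most closely in rank: Pearson's r was 0.958 and Spearman's rho 0.964, with permutation p of 1e-05, the smallest that the permutations can give, and 7e-05. After adjustment over all 26242 probe sets the p of r was 0.0437, and 0.0229% of all probe sets had one below 0.05. Since the permutation p cannot go below 1e-05, an adjusted p below 0.05 needs several probe sets at that bound. Which probe sets pass thus depends partly on the number of permutations. Without KCASP1Tg 2 and KCASP1Tg 4, the mice farthest from the median of the list, r of this Kcnmb1 probe set was 0.963. Within the 6 KCASP1Tg mice it was 0.976, and the 4 WT mice were too few for a value of their own. Kcnmb1 was the only 1 of the 9 genes with a probe set that passed, and its second probe set did not: its r was 0.940 with an adjusted permutation p of 0.139, and 0.572 without KCASP1Tg 2 and KCASP1Tg 4.

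The second Kcnma1 probe set had a higher r of 0.979 but a rho of 0.830, and its permutation p of 0.00011 became 0.0962. Its r fell to 0.806 without KCASP1Tg 2 and KCASP1Tg 4. The brighter Cacna1c probe set had r = 0.868 (adjusted permutation p 0.306), which was 0.557 without those mice, and the second had r = 0.821 (adjusted permutation p 0.298), which was 0.858. Atp2b4 had r = 0.815 (adjusted permutation p 0.279), which was 0.722. The brightest probe sets of Kcnma1, Kcna5, Kcnj8 and Abcc9 had r of 0.140, −0.123, 0.227 and −0.033, with adjusted permutation p of 0.826 to 0.976. Atp2a2 probe sets 2, 4 and 5 had r of 0.668, 0.775 and 0.343 with adjusted permutation p of 0.317 to 0.689, and r of 0.045, 0.416 and 0.158 without those mice. For Pln and for Atp2a2 probe sets 1 and 3 no r is given, since their values split into separate clusters with the heart muscle genes.

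**Figure D4:**
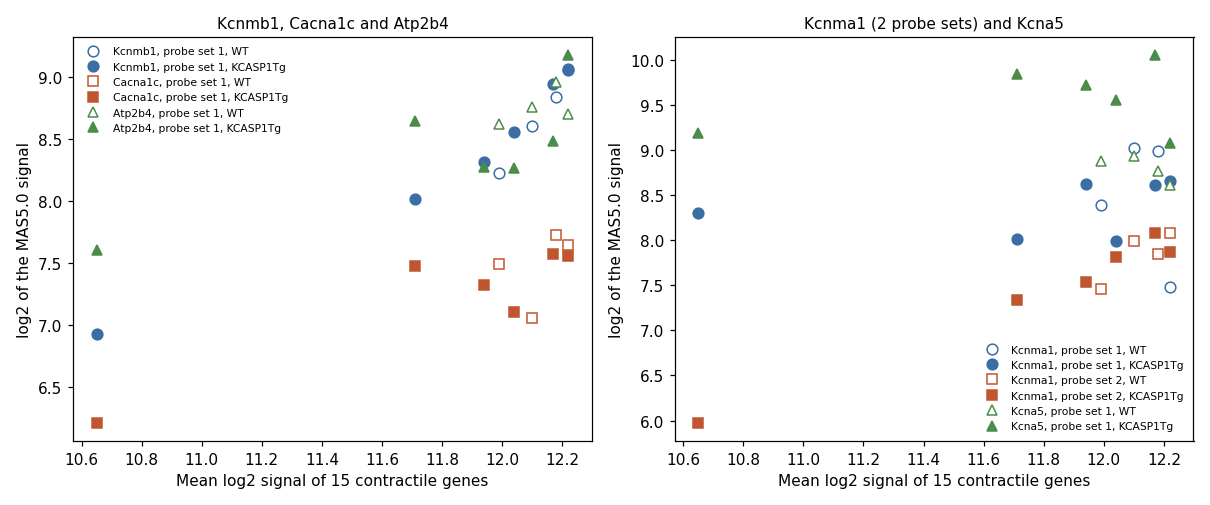
Log2 signal of Kcnmb1, Cacna1c and Atp2b4 (left) and of 2 Kcnma1 probe sets and Kcna5 (right) against the mean log2 signal of 15 contractile genes (horizontal axis), 1 point per mouse, open for WT and filled for KCASP1Tg. The mouse at 10.65 is KCASP1Tg 4; Kcnmb1 rises with the list over all 10 mice (r = 0.958), and all filled Kcna5 points lie above the open ones.

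When each signal was expressed relative to the contractile list of the same mouse, 0 of the 22 probe sets differed between genotypes by limma, against 0.305% of all tested probe sets. This quantity is a difference from the list and not a level. Kcna5 gave 1.11 on the log2 scale (SE 0.34, adjusted p 0.492) and Kcnj8 0.61 (SE 0.33, adjusted p 0.722). Without KCASP1Tg 4, where the contractile list was low, they gave 0.96 (SE 0.25, adjusted p 0.243) and 0.45 (SE 0.20, adjusted p 0.715). Kcnmb1, whose level differed by −0.38, gave −0.04 (SE 0.30), and Cacna1c gave 0.07 (SE 0.30) and Atp2b4 −0.01 (SE 0.31). With the adipocyte list, 0 of the 22 probe sets had an adjusted permutation p of r below 0.05. The share of all tested probe sets was 0%, with the same lower bound on the permutation p. The highest r was that of probe set 2 of Atp2a2, at 0.762 (adjusted permutation p 0.341). Its rho was 0.588, and its r was 0.611 without KCASP1Tg 3 and KCASP1Tg 4.

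Other genes of calcium and potassium handling were read from a list of 61, of which 52 were measured and 41 tested, each by its brightest probe set. By limma 0 of the 41 were called in either direction (0.0686% of all probe sets), 0 had an unadjusted p below 0.05 (7.94%), and 0 had groups that did not overlap (2.93%). Over all 80 tested probe sets of these genes, 0 were called, and 1, a second probe set of Atp2a3, had an unadjusted p below 0.05, with KCASP1Tg higher. For the brightest probe sets, log2 fold changes were positive in 21 and negative in 20, with a median of 0.01. The smallest p was that of Kcna2, which encodes the voltage-gated potassium channel Kv1.2. It had signals of 1030, 1117, 945 and 320 in WT mice and 297 to 907 with a median of 438 in KCASP1Tg mice. WT 4 lay within the KCASP1Tg range, and WT 1 to 3 lay above it. The log2 fold change was −0.79 (SE 0.40, 95% interval −1.68 to 0.09, adjusted p 0.678 by limma). The methods give 8 mice for the arrays and do not say which, and WT 1 to 3 with KCASP1Tg 1 to 5 was tried as 1 such set. There Kcna2 was called, at −1.42 and an adjusted p of 0.0432, where 0.117% of all probe sets were called. This set leaves out WT 4 and KCASP1Tg 6. The Schwann cell gene Mbp had 8818 to 9816 in WT 1 to 3 and 3373 in WT 4. Its KCASP1Tg signals were 3233 to 5094 in mice 1 to 5 and 6401 in mouse 6. Sox10 had 810 to 913 in WT 1 to 3 and 215 in WT 4. Its KCASP1Tg signals were 272 to 615 in mice 1 to 5 and 1053 in mouse 6. Pmp2 stayed below 100 in every mouse. The part of Schwann cells in the Kcna2 call was not tested. The adjusted p of Kcna2 ran from 0.0432 to 0.964 over 25 alternatives.

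The next genes by p were Trpm7, a cation channel with a kinase domain (0.20, SE 0.11), and Atp2a3, the reticulum pump SERCA3 (0.28, SE 0.16). They were followed by the potassium leak channel gene Kcnk6 (0.41, SE 0.26), the plasma membrane pump gene Atp2b1 (0.27, SE 0.21) and Prkg1, the cyclic GMP-dependent kinase of the relaxation pathway (−0.22, SE 0.17). Their adjusted p was 0.729 to 0.842 by limma. Most of these values moved with single mice. Without KCASP1Tg 4, Kcnk6, with a signal of 1337 there against 465 to 621 in the other KCASP1Tg mice, gave 0.20, Atp2a3 0.17 and Prkg1 −0.10. Without WT 4, Atp2b1 gave 0.11, and without WT 2 it gave 0.41.

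For the brightest probe set of each gene, the genes with the most similar pattern over the 10 mice were listed by Pearson's r, as a description without a test. For Kcnmb1 these were Ppp1r12b, which encodes a myosin phosphatase subunit (r = 0.973), Kcnab1, a potassium channel beta subunit (0.971), and Auts2 (0.966). For Kcnma1 they were Ndrg1 (0.981), Cfap36 (0.970) and Adgrg6 (0.962). For Pln they were Mospd3 (0.987), Synpo2l (0.984) and Casq2, the calcium-binding protein of the cardiac reticulum (0.978). For Atp2a2 they were Slc25a4, a mitochondrial ADP/ATP carrier (0.983), Tnnc1, the troponin C of heart and slow muscle (0.963), and Agpat1 (0.951). The most similar genes to Kcna5 were Slc7a8 (0.945), Plekhj1 (0.944) and Slc1a3 (0.936), those to Kcnj8 were Atp13a3 (0.963), Bbof1 (0.951) and Bet1l (0.950), and those to Abcc9 were Rassf6 (0.961), Cox7a2l (0.948) and Slc25a5 (0.942). For Cacna1c they were Cpeb3 (0.974), Fam13c (0.955) and Sepsecs (0.953), and for Atp2b4 they were Zfand3 (0.958), Neo1 (0.945) and Speg (0.942).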

How the data were processed

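Total RNA from the abdominal aorta of 4 WT and 6 KCASP1Tg mice was hybridised to Affymetrix arrays, 1 array per mouse. The deposited values are signal intensities on a linear scale, which the authors computed with MAS5.0 (background and mismatch correction) and scaled to a trimmed mean of 500 on each array. The trimmed mean, without 2% of probe sets at each end, came out at 500.0 on all 10 arrays, with medians of 128.3 to 155.7. Such scaling makes every signal relative to the rest of its array, so another tissue in a sample can lower the values of the other genes. Array number limits the precision, and no scan date or batch was given in the sources used here.

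Of 45101 probe sets, 64 controls were left out. Of the rest, 34945 had 1 symbol in the platform annotation (34741 matched to the gene table), 932 had several and 9160 had none or were not listed. Signals under 1 were raised to 1 before log2, and the 26242 probe sets that reached 100 on 4 or more arrays entered a fit in limma 3.58.1 in R 4.3.3 (genotype as the only term), with Benjamini-Hochberg adjustment over all of them. The exact Mann-Whitney test, which the methods name, was computed beside it. Correlations used 100000 permutations. Every probe set of the listed genes is described. Of the further genes, those called and the 6 with the smallest p are named, and for each listed gene the 3 genes most alike by r. Probe sets are numbered by mean signal, the brightest as 1. The listed genes, the other gene lists and the tests were chosen with earlier results of these data known. In simulated data of 26242 probe sets, limma called 48% of 100 log2 changes of 1 and 90% of 100 changes of 2. Alternatives were other floors, filters, scalings, variance models, a replicate block, a contractile list covariate, gene means and sets of arrays, including each array left out.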

Additional observations from a re-analysis of the deposited data

Results flagged for a closer look

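Dixon's test was applied to the log2 signal of all 24 probe sets of the listed genes within each genotype. This made 48 groups of 4 or 6 mice. In 11 of them (22.9%) the highest or lowest mouse stood apart from its group. The level of the test is about 1 in 20 for independent groups. These groups share mice and genes and are not independent, and the share over all tested probe sets was not computed. WT 4 was far above the other WT mice in all 3 probe sets of Pln, with signals of 3503, 2894 and 3032 against 236 to 317. It was also far above them in probe sets 1 and 3 of Atp2a2, with 20621 against 3848 to 4328 and 10346 against 1436 to 1862. The second Cacna1c probe set had 180.2 in WT 4 against 154.4 to 158.2 in the other WT mice. WT 4 had the highest mean of the heart muscle genes, and the part of that tissue in these values was not tested.

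KCASP1Tg 4 was far below the other KCASP1Tg mice in the second Kcnma1 probe set, with 63.1 against 162.0 to 271.1, and in the brighter Cacna1c probe set, with 74.4 against 137.7 to 190.0. It was also far below them in probe sets 2 and 4 of Atp2a2, with 4999 against 6670 to 7451 and 577.3 against 910.7 to 1149. This mouse had the lowest contractile and the highest leukocyte list means, whose part in these values was not tested. The third Kcnma1 probe set had 51.6 in KCASP1Tg 3, and the rest of that genotype lay at 168.5 to 278.3.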

How the results depend on the processing

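The count of called probe sets of the listed genes was 0 in 25 of 26 alternatives and 1 with array weights (Kcna5), and that of the further genes was 0 in 25 of 26 and 1 with WT 1 to 3 and KCASP1Tg 1 to 5 alone (Kcna2). Both counts were 0 with each array left out, and the count relative to the contractile list was 0 in all 14. The log2 fold changes of Kcna5, Kcnj8, Abcc9 and Atp2b4 kept their direction in all 25 alternatives; Kcna5 was 0.88 with array weights and Kcna2 −1.42 in those 8 arrays. With the contractile list as a covariate, Kcnmb1 turned to 0.067, Cacna1c to 0.003 and Atp2a2 to 0.22. With array weights, Pln turned to 0.29 and Atp2a2 to 0.55. In the 8 arrays they were 0.22 and 0.45, and without WT 4 and KCASP1Tg 3 they were 0.25 and 0.52. Atp2a2 was 0.014 without WT 4, KCASP1Tg 1 and KCASP1Tg 2. The cause of these turns was not tested.

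With 1 array left out in turn, the brightest probe set of Kcnma1 ran from −0.431 to 0.081 (0.071 without WT 2 and 0.081 without WT 3), Pln from −1.243 to 0.092 (without WT 4), and Atp2a2 from −0.347 to 0.461 (0.461 without WT 4 and 0.11 without KCASP1Tg 4). Kcna5 ran from 0.68 to 0.87. Leaving out WT 1 and KCASP1Tg 4, which held skeletal muscle transcripts, was chosen after seeing the data and gave 0.88 for Kcna5, with an adjusted p of 0.273. Mice with the same replicate number did not deviate together (r = 0.11, −0.31, −0.44 and −0.33). The content of other tissues differed between mice, so this check cannot decide whether the numbers pair them. With the number as a block, 0 probe sets were called in either list, and Kcna5 was 0.86 with an adjusted p of 0.694 by limma. With 4 against 6 mice, log2 changes of 1 were found in 48% of simulated cases, so smaller differences may have been missed. The simulated data had 148 calls against 18 in the real data, and adjustment is less strict where more probe sets are called. The share of 48% may thus be too high here. It is also an average over probe sets, and larger changes may have been missed where the spread was wide, as for the brightest Pln probe set (SE 0.93).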
